A study of Homo sapiens with 6 samples.

Results

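HSC3 is an established human line of oral squamous cell carcinoma, and its expression was set against that of 2 other such lines, HSC4 and SAS. Each line was grown in DMEM, a standard culture medium, and in HPLM, a medium designed after the composition of plasma, each with heat-inactivated fetal bovine serum. Poly(A) RNA gave 1 library for each line and medium, so HSC3 stood for 2 of the 6 samples and HSC4 and SAS for 2 each. The labels name no treatment besides the medium, and no separate cultures of a line in the same medium were analysed here. The columns taken for DMEM are those that name a line and no medium. Levels are CPM, that is length-corrected estimated counts scaled to a common library total, so they can be compared between genes as well as between libraries.

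Squamous carcinoma cells descend from stratified epithelium, in which basal cells express keratins 5 and 14 and the factor TP63, bind the basement membrane through integrins, and give up these genes as they mature. Carcinoma lines can depart from this programme by expressing germ-cell antigens, by raising detoxifying enzymes under the factor NRF2, or by losing junction and matrix genes. Each line is grown from the tumour of 1 patient, so any difference between lines is one between 3 tumours.

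Library totals lay between 17716006 and 20171713 estimated counts, and mitochondrial genes held between 12.03% and 15.15% of them. Rank correlation of gene levels was 0.983 between the 2 HSC3 libraries and between 0.914 and 0.924 from HSC3 to the other lines. The 9 squamous markers KRT5, KRT14, KRT6A, KRT17, TP63, DSG3, DSC3, CDH1 and EPCAM summed to 4830 and 4030 CPM in HSC3, 2350 in each HSC4 library, and 1970 and 1490 in SAS. Without KRT5 and KRT14 the other 7 summed to 1134 and 1238 CPM in HSC3, 1458 and 1426 in HSC4, with 925 and 816 in SAS. Markers of leukocytes summed to at most 7.5 CPM in any library, those of fibroblasts to at most 5.97, melanocytes 3.34, endothelium 2.49 and hepatocytes 0.665. TYROBP, COL3A1 and KDR were listed at 0 in all 6 libraries.

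Of 14123 genes tested, 14.5% (2051) were higher in HSC3 and 12.9% (1818) were lower. Higher or lower here means an adjusted p under 0.05 for HSC3 against the mean of the other lines, with medium as a term in edgeR's quasi-likelihood test, and both HSC3 libraries above or below all 4 others. The median log2 difference over all tested genes was 0.018, against 0.916 over the higher and −0.975 over the lower genes. When a call against each line taken alone, in the same direction, was asked for instead, 1141 genes were higher and 1093 lower. When the spread between HSC4 and SAS was counted as error, by taking the 4 libraries as 1 group, 72 higher and 65 lower genes passed. The p-values measure the spread of line differences over 2 media, not that of independent cultures.

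Some of the genes chosen by the naming rule given with the processing also passed under that reading. Of those listed next, ASS1, HEPHL1, NMRAL2P, PHYHD1, PDGFC, TIMP4 and LY6K are not described further. Among the higher ones were AKR1C1, MIF, PTGS1, GPX2, ASS1, RRM1, CD59, SFRP5, FBN2, TFPI2, HEPHL1, NMRAL2P and PHYHD1. Among the lower ones were COL4A1, COL4A2, FN1, ITGA4, ID3, LIF, PDGFC, CCND3, TIMP4, LY6K, CALML3, ADAMTS12, NKX2-5, SLC38A5, DNAJA4 and STAC. MAGEA4, AKR1C2, SERPINA1, CD74 and KRT14 did not pass it. MAGEA4, SERPINA1, CD74 and KRT14 each had levels in HSC4 and SAS that did not overlap either.

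**Figure D1:**
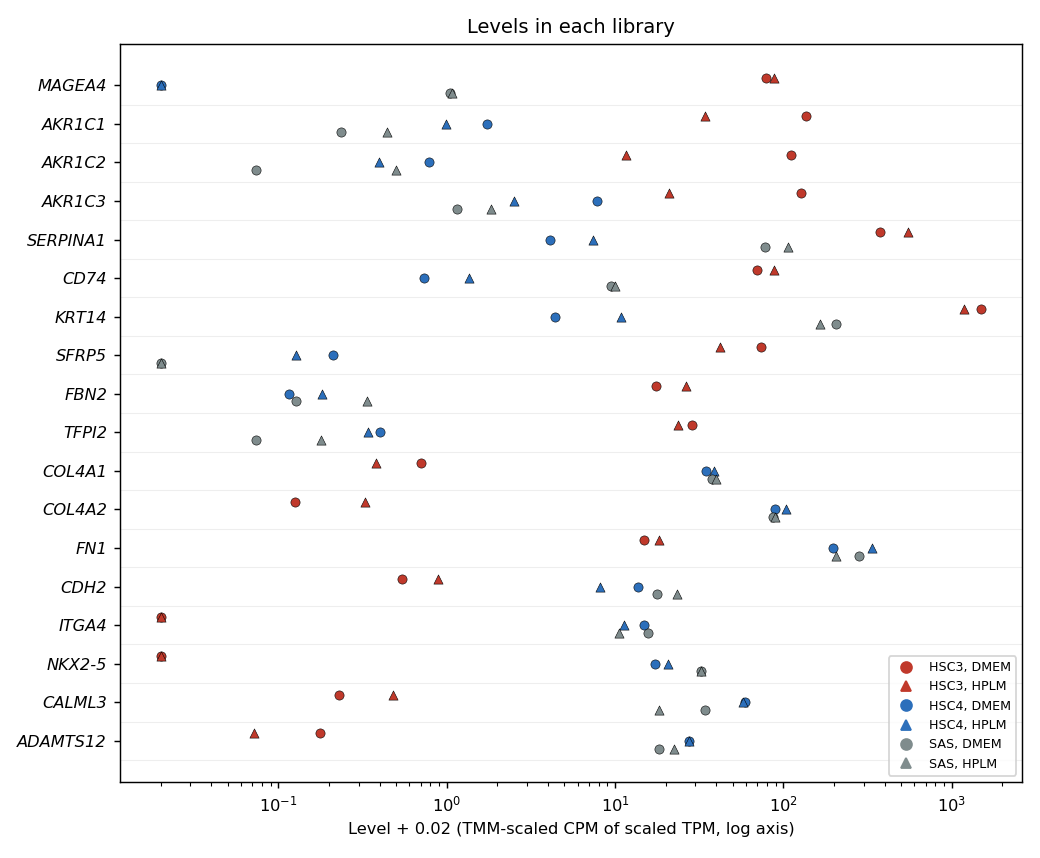
Level of 18 genes in each of the 6 libraries (horizontal axis: CPM plus 0.02 on a log scale; colour: cell line; circles DMEM, triangles HPLM). The HSC3 points lie right of all others for the upper 10 genes, MAGEA4 to TFPI2, and left of all others for the lower 8, COL4A1 to ADAMTS12; points at the left edge are listed at 0.

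MAGEA4 is a cancer-testis antigen, a protein normally restricted to male germ cells and re-expressed in some tumours. The gene lies on chromosome X at 151912509 to 151925170, plus strand (GENCODE 29, GRCh38). It stood at 78.9 CPM in HSC3 in DMEM and 87.6 in HSC3 in HPLM, at 0 in both HSC4 libraries, and at 1.02 and 1.06 in SAS. HSC3 was thus far above the others in either medium, with no overlap and little difference between its own libraries. The log2 difference from SAS was 6.31 ± 0.17 (SE; edgeR adjusted p = 0.000363), a 79.4-fold difference, and HSC3 was at least 1100-fold above HSC4, taking 3 counts over the 2 HSC4 libraries as the limit of a listed 0.

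Transcript ENST00000393920 held 64.0% of the MAGEA4 level in HSC3 in DMEM and 54.5% in HPLM, and ENST00000431971 held 28.3% and 32.8%. The start of the first of these is the start used for the promoter shown here, chrX:151916675-151916974 on the plus strand of GRCh38.p14 (RefSeq), from 250 bases before it to 50 after. It is printed because germ-cell antigen promoters are known to be bound by Ets factors and to be silenced by CpG methylation. Capitals mark the Ets core GGAA, searched on both strands, which matched 4 times, each as TTCC on the strand printed.

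MAGEA4: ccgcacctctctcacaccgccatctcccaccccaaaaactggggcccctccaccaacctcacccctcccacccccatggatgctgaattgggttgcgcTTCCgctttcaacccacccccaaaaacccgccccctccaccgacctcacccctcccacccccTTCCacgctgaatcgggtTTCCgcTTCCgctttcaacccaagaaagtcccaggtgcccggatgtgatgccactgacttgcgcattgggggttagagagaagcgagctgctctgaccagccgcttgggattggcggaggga

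The 300 bases hold 15 CpG dinucleotides, more than 51.1% of the 35116 promoters of the same length. At least 1 GGAA core was found in 95.5% of those promoters, so its presence is common. All 4 matches lie upstream of the start.

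Few other cancer-testis antigens were measurable. Of 117 such genes listed, 109 were in the table but only 15 passed the low-count filter. Of these, 3 (20%) were higher in HSC3 (MAGEA4, SPANXC and IL13RA2) and 1 (6.67%) was lower (ATAD2), beside 14.5% and 12.9% over all genes. The filter kept genes with enough counts in the libraries of any 1 line, so IL13RA2 could enter through HSC3 alone. IL13RA2, a decoy receptor for interleukin 13, reached 1.47 and 3.29 CPM in HSC3 and at most 0.583 elsewhere, a call lost without HSC3 in HPLM. ATAD2, a chromatin factor of dividing cells, stood at 71.9 and 79.9 CPM in HSC3 and between 83.4 and 129 in the others. Its call was lost against HSC4 alone and on leaving out any 1 library except SAS in HPLM. Among MAGE relatives that most tissues express, 4 of 8 tested (50%) were lower, beside 12.9% over all genes, and 0 were higher. MAGED1, an adaptor in cell death signalling, was at 4.24 and 4.21 CPM in HSC3 against 7.42 to 12.1 elsewhere (log2 difference −1.27 ± 0.20, adjusted p = 0.00731). MAGEF1 and NSMCE3 differed by less, and each lost its call on leaving out any 1 library. MAGED4B was the remaining lower one.

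Aldo-keto reductases reduce aldehydes and ketones with NADPH, and those of the AKR1C branch act on steroids, prostaglandins and products of lipid oxidation. AKR1C1 and AKR1C2 lie side by side on chromosome 10, at 4963253 to 4983283 on the plus strand and 4987400 to 5018031 on the minus strand, with AKR1C3 at 5035354 to 5107686 on the plus strand. AKR1C1 stood at 136 CPM in HSC3 grown in DMEM and 34.4 in HSC3 grown in HPLM, against 1.71 and 0.968 in the HSC4 pair and 0.216 and 0.424 in the SAS pair. AKR1C2 stood at 111 and 11.6 CPM in HSC3, 0.760 and 0.377 in HSC4, with 0.0539 and 0.477 in SAS. AKR1C3, which makes testosterone and prostaglandin F, stood at 128 and 20.8 CPM in HSC3, 7.84 and 2.48 in HSC4, with 1.13 and 1.80 in SAS. For all 3 genes both HSC3 libraries were above all the others, and the HSC3 library in DMEM was several times above that in HPLM, a within-line difference that rests on 1 library each.

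The log2 difference from the mean of the other lines was 6.86 ± 0.35 for AKR1C1 (adjusted p = 0.000519), 6.98 ± 0.66 for AKR1C2 (0.00162) and 4.44 ± 0.49 for AKR1C3 (0.00241). Within DMEM the differences were 7.48, 8.23 and 5.35, and within HPLM 5.52, 4.47 and 3.23. AKR1C1 was called against HSC4 (57.8-fold) and against SAS (234-fold) separately. The transcripts of these genes are alike: 64.3% of the 31-base words of AKR1C1 and 51.8% of those of AKR1C2 occur in no other gene of GENCODE 29, against 92.8% for AKR1C3, so the split between the first pair is uncertain.

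Other members of the family were mixed. Of 9 tested aldo-keto reductases 6 (66.7%) were higher and 1 (11.1%) lower, beside 14.5% and 12.9% over all genes. Their median log2 difference was 2.87. AKR1C2 and AKR1B10, both counted as higher, could pass the low-count filter through HSC3 alone. AKR1B10, which reduces retinal and other carbonyls, was at 6.44 and 1.85 CPM in HSC3 and at most 0.712 elsewhere, and its call was lost without the HSC3 library in DMEM. AKR1B1, the aldose reductase of the polyol pathway, was the lower one, at 139 and 159 CPM against 178 to 198, a call lost without the medium term and on leaving out any 1 library.

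The promoters of AKR1C1 and AKR1C2 are shown because the genes were high together and their upstream sequences are nearly the same. They are the 300 bases chr10:4963165-4963464 on the plus strand and chr10:5003808-5004107 on the minus strand (GRCh38.p14, RefSeq), each from 250 bases before the start to 50 after and written along the gene. The AKR1C2 window is not at the start of the transcript given most of its level. That transcript, ENST00000604507, held 62.2% in HSC3 in DMEM and 69.6% in HPLM and starts upstream at 5017955. What is said of the window therefore does not cover that start. Capitals mark bases that differ or have no partner when the pair is aligned.

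AKR1C1: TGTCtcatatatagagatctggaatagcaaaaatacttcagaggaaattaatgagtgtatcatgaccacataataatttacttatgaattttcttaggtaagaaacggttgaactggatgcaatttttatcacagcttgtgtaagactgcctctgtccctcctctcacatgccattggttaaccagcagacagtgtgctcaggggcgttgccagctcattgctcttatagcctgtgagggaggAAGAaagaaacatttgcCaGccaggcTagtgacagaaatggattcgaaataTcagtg
AKR1C2: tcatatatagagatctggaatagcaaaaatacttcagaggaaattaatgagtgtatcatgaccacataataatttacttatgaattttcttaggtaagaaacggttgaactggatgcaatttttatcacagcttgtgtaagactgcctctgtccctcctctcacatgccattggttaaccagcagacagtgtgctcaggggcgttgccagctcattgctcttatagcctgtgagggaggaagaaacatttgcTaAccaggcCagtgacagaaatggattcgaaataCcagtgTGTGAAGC

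Of 292 aligned bases 288 (98.6%) were identical. The windows of AKR1C3, which has 2 starts in the table, matched that of AKR1C1 at 78% and 79.9% of aligned bases. The core of the antioxidant response element to which NRF2 binds, TGACNNNGC on either strand, was in neither of the AKR1C1 and AKR1C2 windows nor in those of AKR1C3, and in 13.3% of all promoters of this length. That says only that these letters are not within the window.

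NRF2, encoded by NFE2L2, is a factor that KEAP1 marks for degradation until oxidants or electrophiles release it, and its targets make glutathione, NADPH and conjugating enzymes. Of 46 NRF2 targets tested 15 (32.6%) were higher in HSC3 and 3 (6.52%) were lower, beside 14.5% and 12.9% over all genes. Their median log2 difference was 0.71 against 0.02 over all genes. AKR1C1, AKR1C2, AKR1C3 and AKR1B10 are among the 15. Of these, AKR1C2 and AKR1B10 could pass the low-count filter through HSC3 alone. GPX2, a glutathione peroxidase of epithelia, stood at 67.0 and 30.2 CPM in HSC3, 7.31 and 4.41 in HSC4, with 4.80 and 3.92 in SAS (log2 difference 3.20 ± 0.18, adjusted p = 0.000598). NQO1, a quinone reductase, stood at 926 and 417 CPM in HSC3, 395 and 205 in HSC4, with 351 and 260 in SAS, with every HSC3 value above all others (1.08 ± 0.15, adjusted p = 0.00477), a call lost without the medium term.

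Of the 46 targets 28 were neither higher nor lower, HMOX1 and FTH1 among them. FTL and GCLC, both among the higher, were chosen after their values were seen. FTL, the ferritin light chain, reached 11350 and 6133 CPM in HSC3 and at most 3835 elsewhere. The ferritin heavy chain, FTH1, did not share this, at 3494 and 1668 CPM in HSC3, 7734 and 4107 in HSC4, with 1782 and 1602 in SAS. GCLC, the catalytic subunit of glutathione synthesis, was at 51.1 CPM in HSC3 in DMEM and 11.8 in HPLM, the latter barely above HSC4 in HPLM at 11.2.

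The 3 lower targets were GSTM3, ALDH3A1 and GCLM. GSTM3, a glutathione transferase, was at 1.36 and 0.668 CPM in HSC3, 45.7 and 48.7 in HSC4, with 18 and 21.9 in SAS (log2 difference −4.91 ± 0.28, adjusted p = 0.00065). ALDH3A1, an aldehyde dehydrogenase of surface epithelia, was at 0 and 0.206 CPM in HSC3 and between 1.33 and 10.3 elsewhere. GCLM, the modifier subunit that pairs with GCLC, was at 27.5 and 21.9 CPM against 32.9 to 39.8, a call lost without HSC3 in HPLM or HSC4 in HPLM. Outside the NRF2 list, GSTO2, an omega-class transferase, was at 1.31 and 1.70 CPM in HSC3 and between 14.6 and 56.6 in the other libraries.

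**Figure D2:**
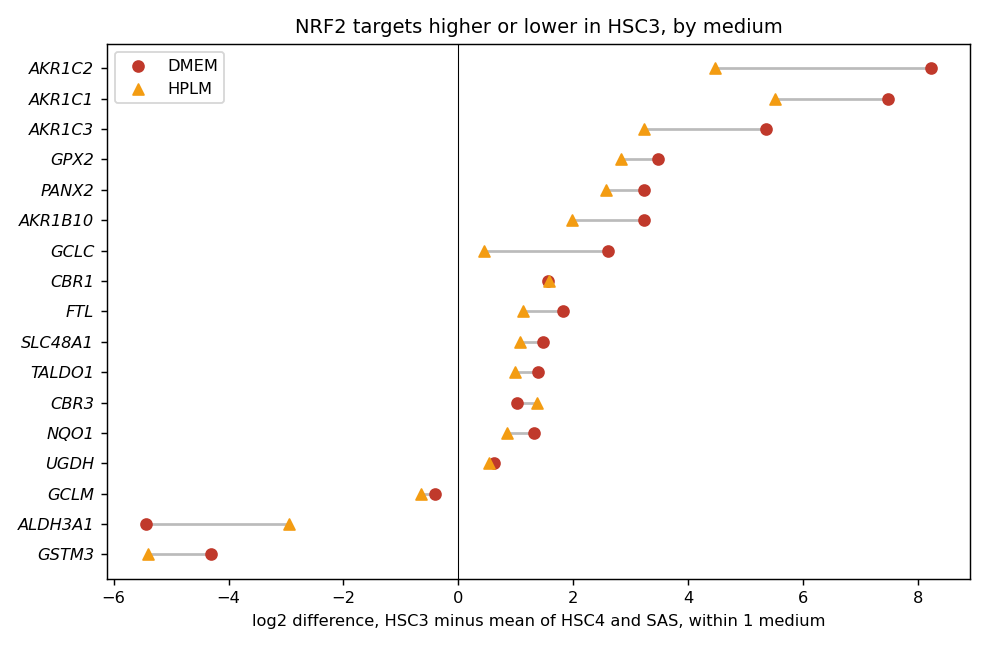
Log2 difference between HSC3 and the mean of HSC4 and SAS within DMEM (circles) and within HPLM (triangles) for 17 of the NRF2 targets called higher or lower (horizontal axis; 1 gene per row). Most of the higher genes, AKR1C2 and GCLC foremost, lie further right in DMEM than in HPLM, while CBR1 and CBR3 do not.

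The HSC3 difference was larger in DMEM than in HPLM for 38 of the 46 tested targets, against 6984 of the 14123 genes, and the median was 1.00 in DMEM and 0.46 in HPLM. Over all genes the median was 0.01 in each medium. NFE2L2 itself stood at 71.6 and 67.6 CPM in HSC3 and between 46.3 and 61.2 elsewhere. Its log2 difference of 0.37 (adjusted p = 0.0431) was not past the threshold without scaling factors, without the low-count filter, without the medium term, without any 1 library or against either line alone. KEAP1 did not pass, at 49.7 and 43.2 CPM against 33.9 to 53.1.

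CD74 is the invariant chain, which holds MHC class II molecules until they are loaded with peptide, and at the cell surface it is a receptor for the cytokine MIF. The gene is on chromosome 5 at 150401637 to 150412929, minus strand. It stood at 69.5 CPM in HSC3 grown in DMEM and 87.7 in HSC3 grown in HPLM, against 0.712 and 1.35 in the HSC4 pair and 9.49 and 9.96 in the SAS pair. HSC3 was above SAS by 8.02-fold (log2 difference 3.0 ± 0.17, adjusted p = 0.000583) and above HSC4 by 77-fold, and SAS was itself above HSC4. Transcript ENST00000353334 held 87.2% and 83.9% of the HSC3 level.

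Class II molecules did not share the difference of CD74. Of 11 class II presentation genes tested 1 was higher and 1 lower, 9.09% each, beside 14.5% and 12.9% over all genes. The higher one was CD74 itself. RFX5, a factor that binds class II promoters, was the lower one, at 16.4 and 21.6 CPM against 23.6 to 30.6. The call of RFX5 was lost against SAS alone and without HSC3 in DMEM, HSC4 in DMEM or either SAS library. HLA-DRA, the alpha chain of HLA-DR, was listed at 0 in both HSC3 and both SAS libraries and at 0.142 and 0.161 CPM in HSC4. CIITA, the class II transactivator, was at 1.67 and 0.771 CPM in HSC3 and between 0.538 and 0.901 elsewhere, a difference that did not pass (adjusted p = 0.327).

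MIF, the ligand, was high as well. It stood at 1596 and 1816 CPM in HSC3, 656 and 749.5 in HSC4, with 633 and 755.5 in SAS. The HSC4 and SAS values overlapped and both HSC3 values lay above them (log2 difference 1.29 ± 0.08, adjusted p = 0.000708). DDT, the homologue of MIF, stood at 355 and 377 CPM in HSC3 and between 123 and 210.2 elsewhere. CD44, the adhesion receptor that signals with CD74, stood at 1468 and 1165 CPM in HSC3 and between 611 and 1046 elsewhere, and was not called against HSC4 alone. These 3 were higher among the 4 tested genes of the list of CD74 ligands and co-receptors (75%, beside 14.5% over all genes). CD44 lies on chromosome 11 between PIGCP1 and API5, where 19 of 25 tested genes were higher. The median log2 difference there was 0.86 against HSC4 and 0.94 against SAS. The transcripts of MIF share many sequences with other genes, with 40.7% of its 31-base words its own, and MIF and DDT lie near each other on chromosome 22 in a stretch of genes high in HSC3.

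LAPTM5, a lysosomal protein of lymphocytes, stood at 47.6 and 117 CPM in HSC3, 3.56 and 6.89 in HSC4, with 19.7 and 15.6 in SAS (log2 difference 3.0 ± 0.32, adjusted p = 0.0021). CORO1A, an actin-binding coronin, was at 34.0 and 33.7 CPM in HSC3 and reached 31.2 in SAS, and it was not called against SAS alone. Of 7 leukocyte markers tested these 2 (28.6%) were higher and 0 were lower, beside 14.5% and 12.9% over all genes. The 8 defining leukocyte markers, among them PTPRC, CD3E, CD14, ITGAM, LYZ, TYROBP and CD53, summed to 5.29 and 7.5 CPM in HSC3, 4.13 and 5.59 in HSC4, with 3.29 and 3.44 in SAS, with TYROBP at 0 throughout. PTPRC, the common leukocyte antigen, was at 2.30 and 2.11 CPM in HSC3 and 1.47 to 2.28 elsewhere.

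Of 43 interferon-stimulated genes tested 4 were higher and 4 lower, 9.3% each, both below the 14.5% and 12.9% over all genes. The 4 higher ones were IRF7 and the neighbouring IFITM1, IFITM2 and IFITM3, membrane proteins that hinder virus entry. All 4 lie in 1 stretch at the start of chromosome 11, from BET1L to TMEM80, where 15 of 25 tested genes were higher. IFITM1 stood at 188.5 and 175 CPM in HSC3, 94.7 and 63.6 in HSC4, with 2.91 and 1.38 in SAS (log2 difference 3.84 ± 0.17, adjusted p = 0.00033). The 3 IFITM genes are near-identical copies, with 44% to 64.7% of their 31-base words their own, so their separate levels are uncertain. SAMD9, OAS3, IFIT2 and ISG20 were the lower ones, SAMD9 at 5.81 and 4.98 CPM against 7.95 to 33.6. Calls against each line alone were not all met by IRF7, OAS3, IFIT2 and ISG20.

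SERPINA1 encodes alpha-1-antitrypsin, the main plasma inhibitor of neutrophil elastase, made chiefly by hepatocytes. The gene is on chromosome 14 at 94376747 to 94390693, minus strand. It stood at 377.5 CPM in HSC3 grown in DMEM and 551 in HSC3 grown in HPLM, against 4.08 and 7.37 in the HSC4 pair and 77.7 and 107 in the SAS pair. All 3 lines kept their order in both media, HSC3 above SAS by 4.99-fold (log2 difference 2.32 ± 0.13, adjusted p = 0.000539) and above HSC4 by 82.3-fold.

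Transcript ENST00000393087, which starts at position 94388820, held 90.8% and 88.0% of the HSC3 level. ENST00000393088, which starts upstream at 94390693, held 2.2% and 3.93%. Most of the level therefore fell to 1 transcript, among 15 overlapping ones at 1 CPM or more. Hepatocyte markers were near 0 in HSC3. ALB was listed at 0 in HSC3 and SAS and at 0.19 and 0.0538 CPM in HSC4, and of 20 hepatocyte markers only 3 were tested, of which 0 were higher or lower.

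Of 20 serpins tested SERPINA1 and SERPINB6 (10%) were higher and 2 (10%) were lower, both shares below the 14.5% and 12.9% over all genes. SERPINB6 was not called against each line alone. SERPINH1, the collagen chaperone, was among the lower and stood at 120.3 and 137.5 CPM against 161 to 449, and was not called against SAS alone. Of 19 acute-phase and complement genes tested 3 (15.8%) were higher, a share near that over all genes, with CFD and CD59 among them. ITIH4 (5.26%) was lower. The call of CFD was lost without either HSC3 library. CD59, which shields cells from complement lysis, stood at 672 and 644 CPM in HSC3 and between 238.5 and 319 elsewhere (1.23 ± 0.09, adjusted p = 0.000959). Like CD44 it lies on chromosome 11 between PIGCP1 and API5, where 19 of 25 tested genes were higher.

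**Figure D3:**
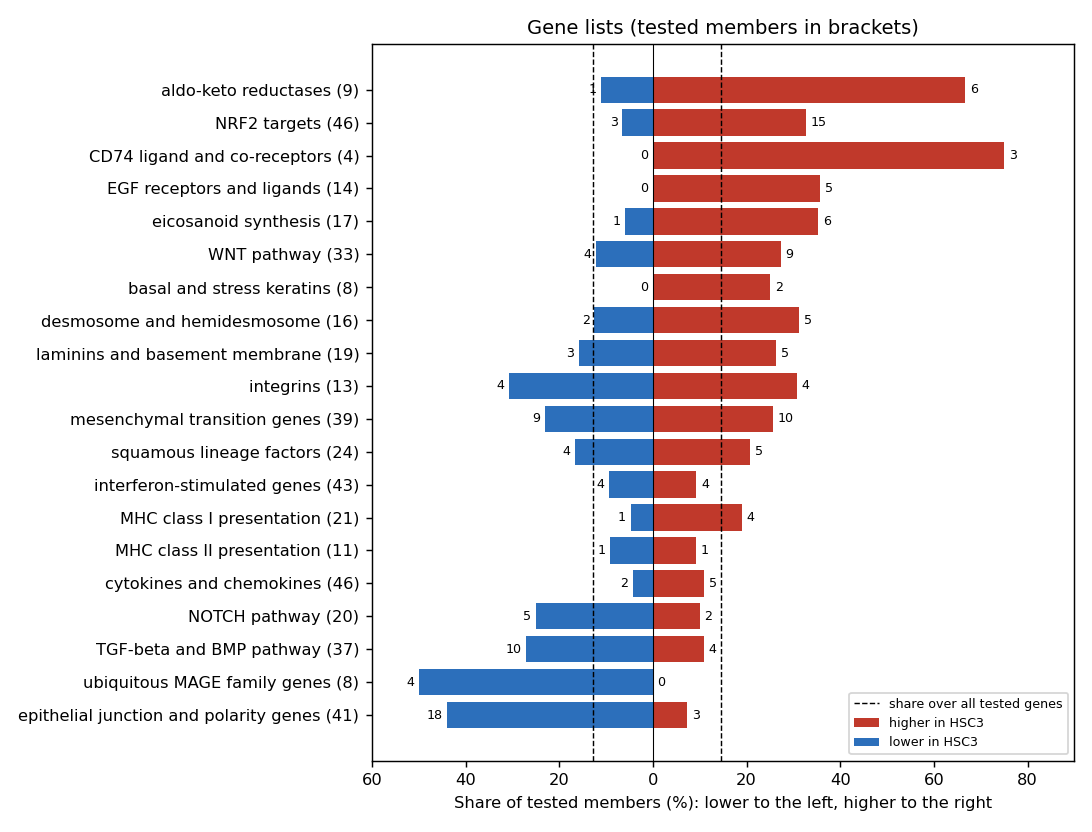
Share of the tested members of 20 gene lists that were higher (right, red) or lower (left, blue) in HSC3, with the number of such members at each bar and the tested members in brackets. Dashed lines give the shares over all tested genes, 14.5% and 12.9%. The higher share is 66.7% for aldo-keto reductases and 32.6% for NRF2 targets. Both of these lists count AKR1C2 and AKR1B10, which could pass the low-count filter through HSC3 alone. The lower share is 43.9% for junction genes and 50% for ubiquitous MAGE genes.

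KRT14, the partner of KRT5 in basal cells, lies on chromosome 17 at 41582279 to 41586921, minus strand. It stood at 1502 and 1180 CPM in HSC3, 4.37 and 10.8 in HSC4, with 205.1 and 165 in SAS, so the lines did not overlap and HSC3 was 7.26-fold above SAS (log2 difference 2.86 ± 0.37, adjusted p = 0.00357). KRT5 stood at 2198 and 1610 CPM in HSC3 and between 511 and 918 elsewhere (1.28 ± 0.16 from the mean of the other lines, adjusted p = 0.00321). These 2 were the higher ones among 8 basal and stress keratins (25%), beside 14.5% over all genes, and 0 were lower.

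Keratins of simple epithelia divided. KRT19 was higher, at 249 and 283 CPM in HSC3, 2.28 and 4.68 in HSC4, with 110.5 and 153 in SAS. KRT7 was lower, at 15.4 and 21.8 CPM in HSC3, 61.3 and 95.8 in HSC4, with 1759 and 1780 in SAS. KRT8 was at 591 and 654 CPM against 688 to 1082, and did not pass against HSC4 alone or without HSC3 in DMEM.

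TP63, the master factor of stratified epithelium, stood at 76.9 and 123 CPM in HSC3, 38.9 and 43.7 in HSC4, with 49.1 and 35.6 in SAS (log2 difference 1.24 ± 0.22, adjusted p = 0.00965), a call lost without the HSC4 library in HPLM. Of 24 squamous lineage factors 5 (20.8%) were higher and 4 (16.7%) lower, beside 14.5% and 12.9% over all genes. SOX15 was higher at 157 and 134 CPM, against 109 and 103 in HSC4 and 15.04 and 8.11 in SAS, and was not called against HSC4 alone. TFAP2C was lower at 9.79 and 8.89 CPM against 12.1 to 30.9. SOX2, a factor often amplified in squamous tumours, was at 0.785 and 0.514 CPM in HSC3, 13.1 and 4.47 in HSC4, with 1.19 and 1.01 in SAS, and was not called against SAS alone or without HSC3 in DMEM or HSC4 in DMEM.

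Of 27 genes of late differentiation 3 were higher and 3 lower, 11.1% each, near the 14.5% and 12.9% over all genes. CALML3, a calmodulin-like protein of epithelial cells, was at 0.209 and 0.462 CPM in HSC3, 59.2 and 57.8 in HSC4, with 34.2 and 18.3 in SAS (log2 difference −6.82 ± 0.40, adjusted p = 0.00069). CSTA, a protease inhibitor of the cornified envelope, was higher at 322 and 342.5 CPM against 76.8 to 184.

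Tight and adherens junctions seal epithelial sheets and hold their cells together. Of 41 junction and polarity genes tested 18 (43.9%) were lower and 3 (7.32%) higher, beside 12.9% and 14.5% over all genes. The median log2 difference of the 41 was −0.42. Of the 18, 10 remained when a call against each line separately was asked for, near the 1093 of 1818 (60.1%) over all lower genes. CDH1, CDH3 and ESRP2 lie between NFATC3 and NFAT5 on chromosome 16, where 16 of 25 consecutive tested genes were lower. CTNND1 lies between SLC43A1 and MS4A4E on chromosome 11, where 13 of 25 were lower. The 18 calls are thus not all separate from those of neighbouring genes. CLDN4, a tight junction claudin, stood at 6.39 and 5.39 CPM in HSC3, 73.0 and 87.5 in HSC4, with 15.7 and 35.6 in SAS (−2.90 ± 0.31, adjusted p = 0.00227). OCLN, another tight junction protein, was at 0.89 and 4.57 CPM in HSC3 and between 4.65 and 17.7 elsewhere, so the HSC3 value in HPLM was close to that of HSC4 in DMEM, and its call was lost without the medium term.

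OVOL1, a factor of epithelial maturation, was at 1.20 and 0.873 CPM in HSC3 and 2.80 to 6.57 elsewhere, a call lost without HSC3 in HPLM. GRHL3, another such factor, was at 0.366 and 0.360 CPM against 0.475 to 8.43. Its call was lost against HSC4 alone, without the medium term, and without HSC3 in HPLM, either HSC4 library or SAS in HPLM. E-cadherin, CDH1, stood at 38.9 and 59.8 CPM in HSC3, 176 and 151.5 in HSC4, with 62.0 and 67.9 in SAS. The SAS values were close to those of HSC3, and CDH1 was not called against SAS alone. Named after their values were seen, EPCAM stood at 97.2 and 134 CPM in HSC3 and between 230 and 361 elsewhere, and CTNND1, the p120 catenin that steadies cadherins, at 27.0 and 28.9 CPM against 62.2 to 133. EHF, an epithelial Ets factor, was one of the 3 higher members, at 82.0 and 112.5 CPM against 17.4 to 61.2. It too lies on chromosome 11 between PIGCP1 and API5, where 19 of 25 tested genes were higher.

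Mesenchymal genes did not move in 1 direction. Of 39 tested 10 were higher and 9 lower, shares of 25.6% and 23.1% beside 14.5% and 12.9% over all genes. PDPN, podoplanin of the invasive front, stood at 12.98 and 16.7 CPM in HSC3, 1.52 and 1.51 in HSC4 and 0 in both SAS libraries. Vimentin, VIM, stood at 218 and 309 CPM in HSC3, 113 and 73.3 in HSC4, with 141 and 92.4 in SAS (1.38 ± 0.24, adjusted p = 0.00938), a call lost without the HSC4 library in HPLM. SNAI2 was at 85.1 and 84.5 CPM against 35.4 to 63.3 and was not called against HSC4 alone or without HSC3 in HPLM, while ZEB1 was near 1 CPM or below in every line and did not pass (adjusted p = 0.284).

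The lower members included cadherin and matrix genes. N-cadherin, CDH2, stood at 0.523 and 0.873 CPM in HSC3, 13.6 and 8.07 in HSC4, with 17.6 and 23.3 in SAS (−4.40 ± 0.40, adjusted p = 0.00146). Fibronectin, FN1, stood at 14.8 and 18.2 CPM in HSC3, 197 and 336.5 in HSC4, with 281 and 207 in SAS, 15.9-fold and 15-fold below the other lines (−3.95 ± 0.30, adjusted p = 0.000979). Lysyl oxidase, LOX, which crosslinks collagen, was at 1.73 and 1.39 CPM against 4.53 to 13.9.

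COL4A1 and COL4A2 encode the paired chains of the common basement membrane collagen, and stand head to head on chromosome 13, at 110148963 to 110307233 on the minus strand and 110305812 to 110513209 on the plus strand. COL4A1 stood at 0.680 and 0.360 CPM in HSC3, 34.6 and 38.5 in HSC4, with 37.6 and 39.8 in SAS. COL4A2 stood at 0.105 and 0.308 CPM in HSC3, 88.7 and 104 in HSC4, with 87.3 and 89.3 in SAS. Both genes were nearly absent from HSC3 and at like levels in the other 4 libraries, with log2 differences of −6.16 ± 0.24 (adjusted p = 0.000246) and −8.76 ± 0.25 (adjusted p = 0.000195). COL4A2 was 415-fold above HSC3 in SAS and 451-fold in HSC4.

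The sequence between these genes is shown because they share it. The window of COL4A2 is chr13:110307034-110307333 on the plus strand (GRCh38.p14, RefSeq). That of COL4A1, on the minus strand, overlaps 226 of its 300 bases, and the 2 starts are 127 bases apart and point away from each other. Capitals mark the GC box core GGGCGG, searched on both strands.

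COL4A2: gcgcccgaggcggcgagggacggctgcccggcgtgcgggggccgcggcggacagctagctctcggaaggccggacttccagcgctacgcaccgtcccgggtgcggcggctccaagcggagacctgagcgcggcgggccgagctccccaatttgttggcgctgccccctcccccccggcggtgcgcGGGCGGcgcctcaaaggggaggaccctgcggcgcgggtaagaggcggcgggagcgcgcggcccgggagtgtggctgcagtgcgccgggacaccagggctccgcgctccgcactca

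The COL4A2 window holds 1 match, upstream of its start, and 45 CpG dinucleotides, more than 96.5% of promoters of this length. At least 1 GGGCGG was found in 45% of them. MAGEA4, with 15 CpG dinucleotides and expressed in HSC3, and COL4A2, with 45 and nearly absent from it, thus have promoters of quite different composition. Methylation was not measured here.

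Other basement membrane genes were mixed. Of 19 laminin and basement membrane genes 5 (26.3%) were higher and 3 (15.8%) lower, beside 14.5% and 12.9% over all genes. COL4A1 and COL4A2 were among the lower. LAMB2 was the other, at 40.1 and 29.8 CPM against 45.0 to 86.9. COL4A5 and COL4A6, a second head-to-head pair of type IV chains, were higher. COL4A5 stood at 20.1 and 26.1 CPM in HSC3, 16.6 and 17.6 in HSC4 and 9.06 in each SAS library, and was not called against HSC4 alone. COL4A6 stood at 10.4 and 20.1 CPM against 6.58 to 10.3, its DMEM value next to that of HSC4 in HPLM. COL4A6 was not called against HSC4 alone, and both of these calls were lost without HSC3 in HPLM.

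Integrins, the receptors for this matrix, divided into 4 higher and 4 lower of 13, 30.8% each beside 14.5% and 12.9% over all genes. ITGA4, the alpha chain that binds fibronectin and VCAM1, was listed at 0 in both HSC3 libraries, at 14.8 and 11.3 CPM in HSC4 and at 15.7 and 10.6 in SAS. That put HSC4 at least 168-fold and SAS at least 169-fold higher, taking 3 counts over the 2 HSC3 libraries as the limit of a listed 0. ITGB4 and ITGA6, the laminin-binding pair of hemidesmosomes, were higher. ITGB4 stood at 514 and 439 CPM in HSC3, 223 and 191 in HSC4, with 176 and 101 in SAS (1.51 ± 0.14, adjusted p = 0.00151). ITGA6 stood at 227 and 238 CPM against 70.6 to 169, and was not called against HSC4 alone, without HSC3 in HPLM or without either HSC4 library. ITGB1, the common beta chain, stood at 647 and 701 CPM against 226 to 368.

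EGF family ligands bind EGFR and its relatives and drive the growth of epithelial cells. Of 14 such genes tested 5 (35.7%) were higher and 0 lower, beside 14.5% and 12.9% over all genes. EGFR stood at 402 and 349 CPM in HSC3, 214 and 193 in HSC4, with 112 and 96.7 in SAS, the 3 lines apart in both media (1.36 ± 0.08, adjusted p = 0.000693). Its ligand EREG, epiregulin, stood at 29.8 and 31.3 CPM against 4.88 to 11.7 (2.14 ± 0.26, adjusted p = 0.00323). HBEGF, a second ligand, was at 68.3 and 78.8 CPM against 22.99 to 52.6 (a call lost without the medium term), and LRIG1, which turns the receptor over, at 18.1 and 21.0 CPM against 4.08 to 9.21.

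Of 37 genes of TGF-beta and BMP signalling 10 (27%) were lower and 4 (10.8%) higher, beside 12.9% and 14.5% over all genes. ID1 and ID3, targets of BMP signalling that block differentiation factors, were among the lower. ID3 stood at 3.87 and 7.61 CPM in HSC3, 49.3 and 56.3 in HSC4, with 40.1 and 73.7 in SAS (−3.29 ± 0.22, adjusted p = 0.000793), and ID1 at 15.3 and 25.02 CPM against 51.1 to 102. TGFB2, a ligand, was at 5.71 and 6.99 CPM against 14.2 to 31.1. SMAD4, the shared signal carrier, was at 16.8 and 14.6 CPM against 28.3 to 38.6 (−1.08 ± 0.10, adjusted p = 0.00165). SMAD2 and SMAD7, also lower, lie with SMAD4 on chromosome 18 between SETBP1 and RNF152. In that stretch 17 of 25 and then 15 of 25 consecutive tested genes were lower. The 10 lower calls are thus not all separate from those of neighbouring genes. FST, follistatin, which traps activin, was higher at 207 and 94.1 CPM against 34.0 to 65.3.

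Of 33 WNT genes tested 9 (27.3%) were higher and 4 (12.1%) lower, beside 14.5% and 12.9% over all genes. The lower share was thus near that over all genes. WNT7A, a ligand of epithelia, stood at 24.8 and 27.9 CPM in HSC3, 12.5 and 17.5 in HSC4, with 3.34 and 1.96 in SAS, and was not called against HSC4 alone. WNT5B, a ligand of the non-canonical branch, stood at 17.4 and 9.20 CPM against 1.51 to 6.41. DKK3, a secreted member of the dickkopf family, stood at 203 and 141.5 CPM against 24.5 to 109. SFRP5, a secreted WNT inhibitor, stood at 73.8 and 42.2 CPM in HSC3, with 0.19 and 0.108 in HSC4 and 0 in both SAS libraries. It was 374-fold above HSC4 (log2 difference 8.54 ± 0.24, adjusted p = 0.000393) and at least 723-fold above SAS.

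Of 46 cytokines, chemokines and their receptors tested 5 were higher and 2 lower, shares of 10.9% and 4.35%, both below those over all genes. IL24, a cytokine of the interleukin 10 family, stood at 72.0 and 170.5 CPM in HSC3, 3.85 and 3.93 in HSC4, with 16.2 and 22.7 in SAS (3.70 ± 0.22, adjusted p = 0.000708). CXCL2, a neutrophil attractant, stood at 31.2 CPM in HSC3 in DMEM and 216 in HSC3 in HPLM and between 3.45 and 27.8 elsewhere. LIF and its receptor LIFR were the lower ones, LIF at 7.38 and 8.73 CPM against 28.0 to 45.0 (−2.21 ± 0.17, adjusted p = 0.00104). Of 17 eicosanoid genes, enzymes and the receptor PTGER4 among them, 6 (35.3%) were higher and PTGER4 was lower, beside 14.5% and 12.9% over all genes. AKR1C3, counted above as an aldo-keto reductase and NRF2 target, is among the 6. PTGER4 was not called against each line alone, and its log2 difference ran from −3.13 to −1.04 over the alternative settings. PTGS1, the constitutive cyclooxygenase, stood at 56.5 and 51.6 CPM in HSC3, 3.09 and 2.96 in HSC4, with 7.44 and 6.15 in SAS (3.58 ± 0.11, adjusted p = 0.000195). TBXAS1, thromboxane synthase, was at 6.80 and 4.42 CPM against 0.592 to 1.17.

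CDKN2A, whose products include an inhibitor of cyclin-dependent kinases, was at 68.4 and 43.0 CPM in HSC3, 23.5 and 21.7 in HSC4, with 62.0 and 38.6 in SAS. HSC3 and SAS thus overlapped in the sum over its transcripts. Transcript ENST00000578845 held 78.1% and 67% of it in SAS and 47.7% and 37.7% in HSC3. ENST00000304494 did not overlap, at 17.3 and 13.3 CPM in HSC3, 1.5 and 2.64 in HSC4, with 1.18 and 0.457 in SAS. The split among overlapping transcripts is an estimate. CCND2 was higher, at 44.4 and 87.5 CPM against 9.87 to 30.2, and CCND3 lower, at 18.2 and 17.1 CPM against 49.6 to 68.3 (−1.75 ± 0.10, adjusted p = 0.000699). The list of cell cycle genes gave 5 higher and 5 lower of 39 (12.8% each), near the shares over all genes, among them RRM1 at 240.3 and 273 CPM against 107 to 121, and MCM7 at 142.5 and 140.4 CPM against 292 to 415.

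Genes at 5 CPM or more in both HSC3 libraries and under 0.5 CPM in all 4 others numbered 5: SFRP5, FBN2, TFPI2, SBDSP1 and RDM1P4. FBN2, a fibrillin of elastic microfibrils, stood at 17.6 and 26.3 CPM in HSC3 and at most 0.318 elsewhere (log2 difference 7.01 ± 0.23, adjusted p = 0.000202). TFPI2, a protease inhibitor of the matrix, stood at 28.7 and 23.7 CPM against at most 0.38 (7.02 ± 0.24, adjusted p = 0.000212). SBDSP1 and RDM1P4 are pseudogenes listed at 0 in HSC4 and SAS. SBDSP1 was at 24.4 and 32.7 CPM in HSC3 and RDM1P4 at 18.7 and 7.71, but only 61.4% and 3.77% of their 31-base words are their own, so their reads can be those of related genes.

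The reverse set, under 0.5 CPM in both HSC3 libraries and at 5 or more in the others, numbered 15. It held COL4A2, ITGA4, CALML3, ADAMTS12, CCDC68, DNAJA4, FAM166C, FAM83F, GALNT14, M1AP, MOCS1, NKX2-5, SLC38A5, SLC6A11 and STAC. NKX2-5, a heart transcription factor, was listed at 0 in HSC3, at 17.2 and 20.6 CPM in HSC4 and at 32.6 and 32.3 in SAS, at least 243-fold and 417-fold higher. ADAMTS12, a secreted metalloprotease, was at 0.157 and 0.0514 CPM in HSC3, 27.4 and 27.5 in HSC4, with 18.2 and 22.3 in SAS. SLC38A5, a transporter of glutamine and serine, was at 0.366 and 0 CPM in HSC3, 54.7 and 56.5 in HSC4, with 70.9 and 43.8 in SAS. DNAJA4, an HSP40 chaperone, was at 0.262 and 0.103 CPM in HSC3 and between 17.7 and 49.2 elsewhere. Values this low rest on few counts, and the limits of 5 and 0.5 CPM set the number of genes: with 1 and 0.1 CPM there were 16 found in HSC3 alone and 19 missing from it.

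The calls were spread unevenly over the genome. Genes of chromosome 18 were lower in 34.5% of 197 tested cases and higher in 7.61%, and those of chromosome 7 lower in 27.5% of 694 and higher in 5.19%. In the other direction chromosome 21 gave 28 higher and 1 lower gene of 135, chromosome 4 gave 22.8% higher and 3.29% lower, and chromosome 14 gave 26.7% and 3.93%. Chromosome 22 gave 29.7% higher genes and chromosome 15 only 1.51%. The median log2 difference of chromosome 18 was −0.74 against HSC4 and −0.30 against SAS, and that of chromosome 14 was 0.23 and 0.41. That of chromosome 21 was 0.52 against HSC4 and 0.05 against SAS, and that of chromosome 4 was 0.47 and 0.20. That of chromosome 15 was −0.73 against HSC4 and 0.02 against SAS.

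**Figure D4:**
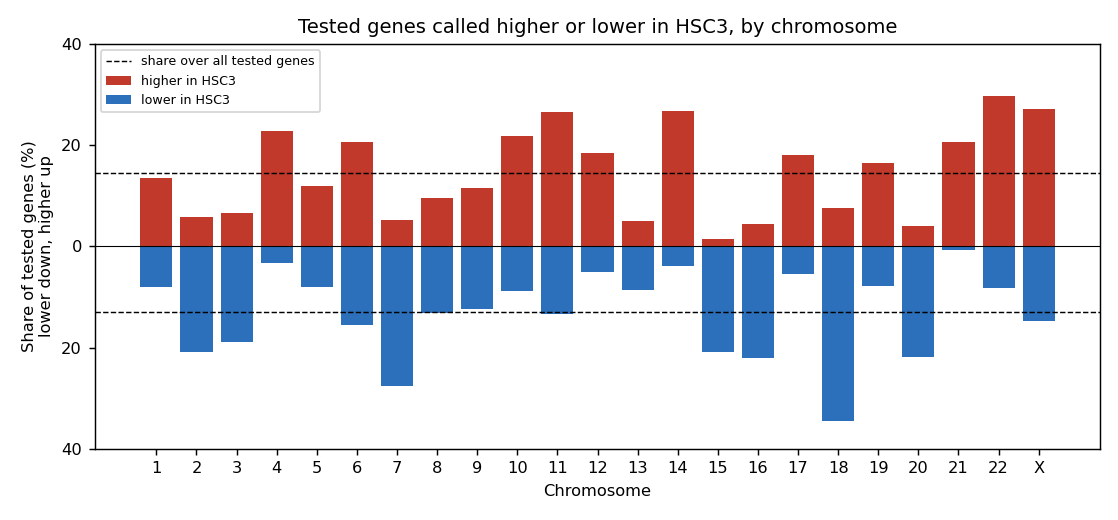
Share of tested genes on each chromosome that were higher (up, red) or lower (down, blue) in HSC3, as a percentage of tested genes. Dashed lines give the shares over all tested genes, 14.5% and 12.9%; chromosome 18 has the largest lower share, 34.5%, and chromosome 22 the largest higher share, 29.7%.

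Stretches of neighbouring genes differed together. The tested genes were cut into 550 windows of 25 consecutive genes, a scale chosen after the chromosome counts were seen, and the median window held 2 higher and 2 lower genes. In 18 windows at least 15 genes were higher and in 12 at least 15 were lower. The highest count of lower genes was on chromosome 6 between USP49 and CUL9 (positions 41789896 to 43224587), where 23 of 25 were lower, with a median log2 difference of −1.47 against HSC4 and −1.55 against SAS. The windows on either side had 17 and 21 lower genes, and CCND3 lies in this window.

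On chromosome 11, 20 of 25 genes between CD81 and CAVIN3 (positions 2376177 to 6320647) were higher, and RRM1 is among the genes of that stretch. From there to API5 all 5 following windows had at least 17 higher genes. The same chromosome turned the other way between FCHSD2 and KCTD21 (72836745 to 78188822), with 17 and 19 lower genes in neighbouring windows. On chromosome 22, 18 of 25 genes from MIF to TPST2 (23894004 to 26596717) were higher, with a median of 1.07 against HSC4 and 1.33 against SAS, close to the difference of MIF itself.

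On chromosome 3, 16 of 25 genes were lower from TRNT1 to JAGN1 (3126916 to 9894349). On chromosome 18, 17 genes from SETBP1 to ME2 and 15 from ELAC1 to RNF152 were lower, of 25 each, and SMAD4 is in the second window. DNA copy number was not measured here, and its part in these stretches was not tested. AKR1C1, AKR1C2, MAGEA4, SERPINA1 and CD74 lay in windows with fewer than 15 genes called in either direction, but above the median of 2 higher genes. Of 25 genes, 12 were higher around the AKR1C pair, 11 around SERPINA1, 9 around MAGEA4 and 7 around CD74.

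**Figure D5:**
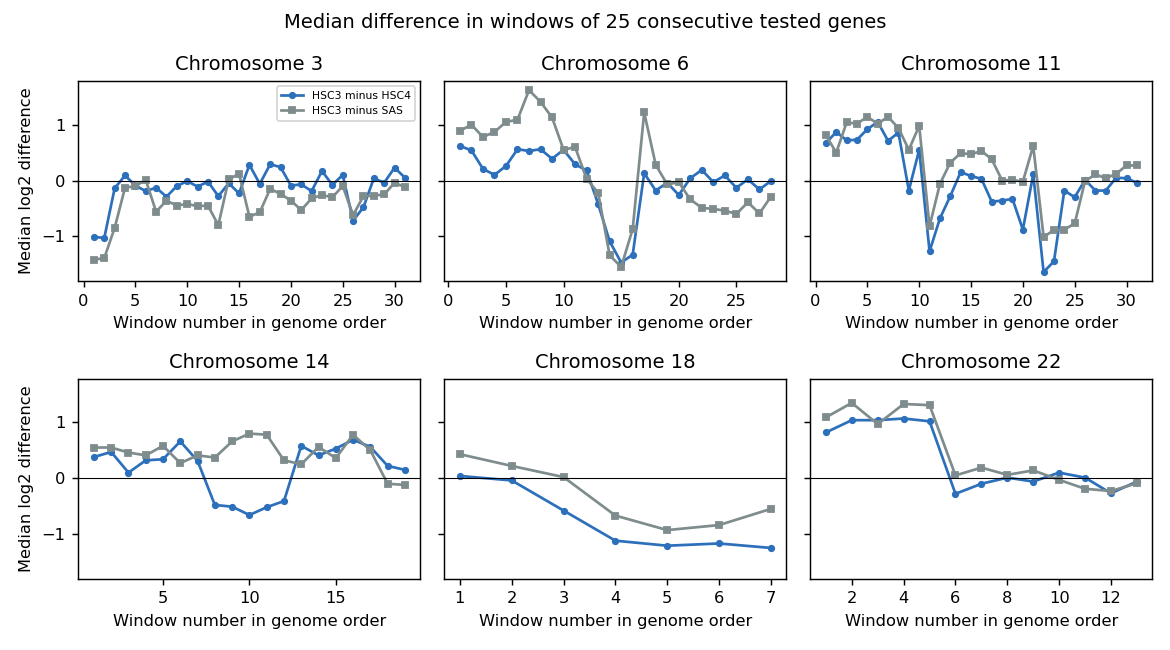
Median log2 difference in windows of 25 consecutive tested genes along 6 chromosomes chosen for their long stretches, for HSC3 minus HSC4 (blue circles) and HSC3 minus SAS (grey squares); the horizontal axis numbers windows in genome order. Both curves leave 0 together over the first 5 windows of chromosome 22, windows 14 to 16 of chromosome 6 and windows 4 to 7 of chromosome 18, while on chromosome 14 they part in the middle.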

How the data were processed

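Poly(A) RNA of HSC3, HSC4 and SAS in DMEM and HPLM was sequenced, 1 library each. The authors deposited a table of scaled estimated counts per transcript, length-corrected, made with kallisto on hg38, with FastQC, per the submitters' processing notes. No source used here gives versions or the use of strand, so overlapping and antisense genes cannot be told apart. Of 161149 rows, 1312 repeats of a transcript were dropped, and 152959 transcripts with a symbol were summed to 27852 symbols. Transcripts without one held 0.362% to 0.479% of a library. Expected counts, as deposited, were rounded and tested with edgeR 4.0.16 in R 4.3.3 (TMM scaling, filterByExpr with a minimum count of 10 and total of 15, quasi-likelihood, line and medium terms, Benjamini-Hochberg adjustment). The script was tested on simulated data. Library totals, 17716006 to 20171713, do not give counting intervals, since the values are estimates. Alternatives used DESeq2 1.42.0, limma 3.58.1, other scalings, filters and terms, and left out each library.

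The members and the 61 gene lists were chosen with earlier results of these data known. The text names the markers MAGEA4, AKR1C1, AKR1C2, SERPINA1 and CD74; the 15 higher and 15 lower genes with the largest difference to the nearer line at a mean of 5 CPM; up to 4 higher and 4 lower members of each list at a mean of 1 CPM; and a fixed set including CDH1, EGFR and KRT14. Genes on chromosome Y and XIST were left out of naming and of the counts of genes found in or missing from HSC3. SPANXC, MAGED4B, ITIH4, PTPRC, CBR1, CBR3, FTL, FTH1, HMOX1, GCLC, EPCAM, CTNND1, ESRP2, SMAD2 and SMAD7 were named after their values were seen. So were the transcripts, 31-base words, promoters and windows described. Gene coordinates are those of GENCODE 29, and promoters are from RefSeq. Some results are not reported here.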

Additional observations from a re-analysis of the deposited data

How the results depend on the processing

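The counts of 2051 higher and 1818 lower genes depended most on how the other lines enter. They were 72 and 65 with HSC4 and SAS as 1 group, 314 and 345 against a 2-fold threshold, and 1141 and 1093 when both lines had to be called. Leaving out 1 library gave 1236 to 1749 higher and 1101 to 1502 lower genes, with the lone library of a line assumed to vary like the others. The lowest values were those without HSC3 in DMEM (1236 and 1101) and without HSC3 in HPLM (1325 and 1146). The genes that differ between HSC3 and HSC4 numbered 5118, and 2046 to 4801 without 1 library. The genes that differ between HSC3 and SAS numbered 5317, and 2682 to 4590 without 1 library. Genes found in HSC3 alone numbered 5, with 16 at limits of 1 and 0.1 CPM, 9 at limits of 10 and 1 CPM, and 5 to 8 without 1 library. DESeq2, limma-voom, upper-quartile scaling, no scaling factor, no low-count filter, no medium term and repeated rows kept the counts within 1.5 times; without a scaling factor they were 1691 and 2085. The median of all genes was 0.018 with TMM and −0.052 without scaling. None of the genes named by the rule changed direction under these alternatives, which were not run for those named after their values were seen. The medium matches the libraries across lines and is a term of the fit. Without this block there were 1992 higher and 1803 lower genes.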
